A study of Mus musculus with 2 samples.

Results

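Outside the most peak-dense megabases of the mouse genome, Ehf peaks of the corneal epithelium formed 229 clusters of 3 or more. These clusters held 750 of the 15384 peaks in the deposited list, or 4.88%. Peaks on chromosomes 1 to 19 of the build mm9 were chained where the edge-to-edge gap to the next peak was 10000 bp or less. A peak was kept if its chain had 3 or more peaks, its start lay above 3.1 Mb, and its midpoint did not fall in a 1 Mb bin with 20 or more peaks. Of the 320 autosomal chains of 3 or more, 89 lay in such dense bins and 2 at or below 3.1 Mb, and no chain was cut by either limit.

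The study precipitated Ehf-bound chromatin from wild-type mouse corneal epithelium, with an unprecipitated input library as the control, 1 library each. The tissue pool came from 15 mice, 2 to 3 months old, and the precipitation started from 24 ug of chromatin. One label calls the strain CB6 and another C57Bl/6. Only the ChIP library had a peak list to analyse here, and no value of the input was used. The list gives positions and the authors' score for each peak, and no read counts, so the depth behind a peak is unknown. The scale of the score is not stated, so ratios of scores below need not be ratios of signal. With 1 library and members chosen by position, every value below describes this list and none was tested. Intervals for shares are 95% Wilson intervals and cover counting error only. Those for medians are 95% order-statistic intervals. Both treat peaks or clusters as separate draws, and peaks of 1 cluster share their position. Positions are printed as in the file. No mm9 sequence or annotation was used, so clusters are named by coordinate, and neither the tissue's marker genes nor the ETS motif could be checked.

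Ehf belongs to the ETS family of transcription factors, which recognise a GGAA core in DNA, and it is expressed mainly in epithelia. The corneal epithelium is the stratified sheet of cells at the front of the eye, renewed from stem cells at its rim. Binding sites of a transcription factor often lie in groups, at a promoter and at several nearby enhancers. A peak caller also reports neighbouring stretches of a single broad region as separate peaks where the signal between them dips.

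Most clusters were small. Of the 229, 186 had 3 peaks, 29 had 4, 10 had 5, 3 had 6 and 1 had 8. They lay in 209 bins of 1 Mb, of which 189 held a single cluster. The bin of a cluster had a median of 11 peaks in all, within the 3 to 19 that the rule allows. A cluster bin kept a median of 31.3% of its peaks in clusters, and in 2 bins all peaks were in one. The nearest peak outside a cluster was a median of 43730 bp away (40130 to 50640). The nearest other of the 229 clusters was a median of 2405184 bp away, and 14 had another of them within 100000 bp. Chains in dense bins or at or below 3.1 Mb were not counted as neighbouring clusters.

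The closest of these neighbours lay on chromosome 2. There a cluster of 6 peaks from 74493400 to 74521193 was followed after 14781 bp by a cluster of 3 from 74535974 to 74544069. On chromosome 7, a cluster of 5 from 26022422 to 26036225 and a cluster of 3 from 26063414 to 26068058 were 27189 bp apart. The bin of chromosome 12 that starts at 113 Mb was the only one with 3 clusters, which took 9 of its 13 peaks.

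The share of a chromosome's peaks that lay in these clusters varied. It was 4.97% over all autosomes. It was lowest on chromosome 1, with 18 of 908 peaks (1.98%, 1.26 to 3.11%). It was highest on chromosome 18, with 40 of 519 (7.71%, 5.71 to 10.3%), followed by chromosome 19 with 7.51% (5.49 to 10.2%) and chromosome 2 with 7.38%. Chromosome 2 had the most clusters, 27. On chromosomes 10, 11, 15 and 17 more of the chained peaks lay in dense bins than outside them, for example 52 against 33 on chromosome 10 and 51 against 39 on chromosome 11. The low shares of chromosomes 10 and 11, 3.67% and 3.60%, are shares after that removal. Among chromosomes with no chained peaks in dense bins, shares ran from 3.21% on chromosome 9 to 6.22% on chromosome 13. Whether the removal accounts for low shares was not tested.

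Cluster spans, measured from the first start to the last end, had a median of 7979 bp (7241 to 8775), with quartiles of 2973 and 11220 bp and a range of 1228 to 33959 bp. There were 58 clusters between 1000 and 3000 bp, 12 between 3000 and 5000, 28 between 5000 and 7000, and 36 between 7000 and 9000. Whether these are separate groups was not tested. Peaks covered a median of 16.6% of a cluster's span.

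Sorted by their gaps, the clusters were of 3 kinds. In 46 (20.1%, 15.4 to 25.8%) every gap was 1000 bp or less, and these are called compact here. They spanned a median of 1829 bp, of which peaks covered 73.0%. In 80 (34.9%) every gap was over 1000 bp, with a median span of 11293.5 bp and a coverage of 9.65%. The other 103 mixed short and long gaps and spanned a median of 7846 bp. Compact clusters were 44 of the 58 with a span of up to 3000 bp, and 42 of the 46 had 3 peaks. With gaps of 1000 bp or less closed, the compact clusters became single regions, 83 clusters became 2 regions, and 100 (43.7%, 37.4 to 50.1%) still held 3 or more.

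**Figure D1:**
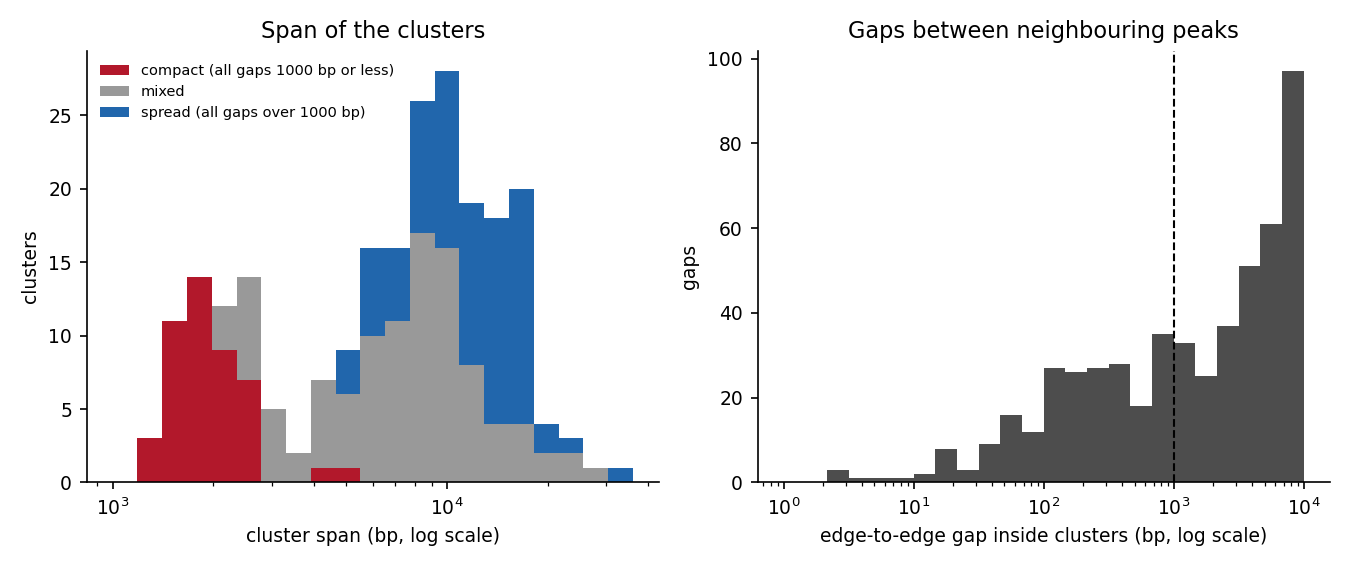
Left, the number of clusters by span on a log axis, coloured by whether all gaps were 1000 bp or less (46 compact clusters), all were over 1000 bp (80 spread clusters) or both kinds occurred (103 mixed clusters). Right, the 521 gaps inside clusters on a log axis, with a dashed line at 1000 bp; 12 clusters span 3000 to 5000 bp, against 58 of 1000 to 3000 bp and 28 of 5000 to 7000 bp, and 217 gaps lie at or left of the line.

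The 521 gaps inside clusters had a median of 1804 bp (1276 to 2528) and quartiles of 307 and 5877 bp. Gaps of 1000 bp or less numbered 217 (41.7%, 37.5 to 45.9%). Per 100 bp of distance, gaps were most frequent below 200 bp, with 107 gaps. From 2000 to 10000 bp their number was nearly even, with 67 between 2000 and 4000 bp, 62 between 4000 and 6000, 65 between 6000 and 8000 and 57 between 8000 and 10000. The rule ends the count at 10000 bp.

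Within a cluster of 3, the gaps were often unequal. The larger gap was a median of 4.48 times the smaller (3.23 to 5.95). In 55 of the 186 clusters the larger was at most 2 times the smaller, and in another 55 it was more than 10 times as long. Such a cluster holds a pair much closer than the remaining peak, but the longer gap can itself be short. On chromosome 9, from 106788295 to 106789786, the gaps were 3 and 120 bp. A case with a long gap lies on chromosome 7 from 133225235 to 133231827. There, peaks scoring 75.9 and 76.7 were 33 bp apart, and the last, scoring 304, followed after 5305 bp.

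The shortest clusters were runs of peaks with little space between them. The shortest, on chromosome 7 from 112729240 to 112730468, placed 3 peaks in 1228 bp with gaps of 166 and 312 bp and scores of 143, 62.6 and 69.5. The next, on chromosome 6 from 47997662 to 47998939, had 3 peaks of nearly equal width, 333, 375 and 327 bp, with scores of 67.8, 63.9 and 68.3. A cluster of 1396 bp on chromosome 5 (141560561 to 141561957) held a peak of 521 bp and 2 peaks of 152 and 150 bp, and both narrow peaks had the score 171. On chromosome 18, 3 peaks lay from 7868564 to 7870020 with gaps of 111 and 120 bp, and covered 84.1% of that stretch. The fifth, from 100138887 to 100140346 on chromosome 12, rose in score from left to right, 54.8, 117 and 244.

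The cluster with the most peaks, 8, lay on chromosome 7 from 144501016 to 144514735. Its scores from left to right were 70.8, 53.4, 57.3, 67.7, 57.6, 59.5, 79.6 and 125. The last was the highest and the widest, and 5 of the 7 gaps were 1000 bp or less. The other 7 peaks were all below the list's median score of 86.2, so the largest cluster was built mostly of low-scoring peaks.

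The longest cluster, 33959 bp on chromosome 8 from 26302424 to 26336383, was built differently. Its 6 peaks scored 59.6, 123, 117, 233, 81.4 and 72.6, and no gap was under 2611 bp. The fourth, 155 bp wide, was the highest. On chromosome 4, a cluster of 6 from 109647314 to 109661161 rose toward the right, with scores of 52.9, 57.9, 75.6, 79.98, 148 and 99.4, and the peak scoring 148 was also the widest, at 950 bp. The 6 peaks on chromosome 2 from 74493400 to 74521193 scored 94.5, 65.3, 67.3, 77.8, 78.8 and 106. Both ends scored above every peak between them, and the strongest was 1.63 times the weakest.

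There were 10 clusters of 5, and the 6 with the highest strongest score are given here. Scores could differ several fold inside one cluster. On chromosome 6, from 115934359 to 115957886, peaks scored 202, 53.1, 302, 72.3 and 60.2. Its highest peak, 166 bp wide, stood 360 bp from the weakest, which was 764 bp wide. On chromosome 13, from 108677906 to 108684022, 5 peaks lay within 6116 bp and scored 202, 185, 60.4, 90.6 and 142. On chromosome 2, from 174153272 to 174163400, the first 4 peaks rose stepwise, 86.2, 96.7, 174 and 198, over gaps of 348, 66 and 218 bp, and the fifth, scoring 90.7, lay 6960 bp further on. The chromosome 9 cluster from 21032633 to 21049758 scored 127, 186, 108, 58.0 and 83.1, and that on chromosome 14 from 35623750 to 35640947 scored 186, 84.3, 101, 85.2 and 65.3. On chromosome 4, from 128466959 to 128492112, 3 peaks were close in score, 147, 154 and 164, and the other 2 scored 65.8 and 77.7.

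**Figure D2:**
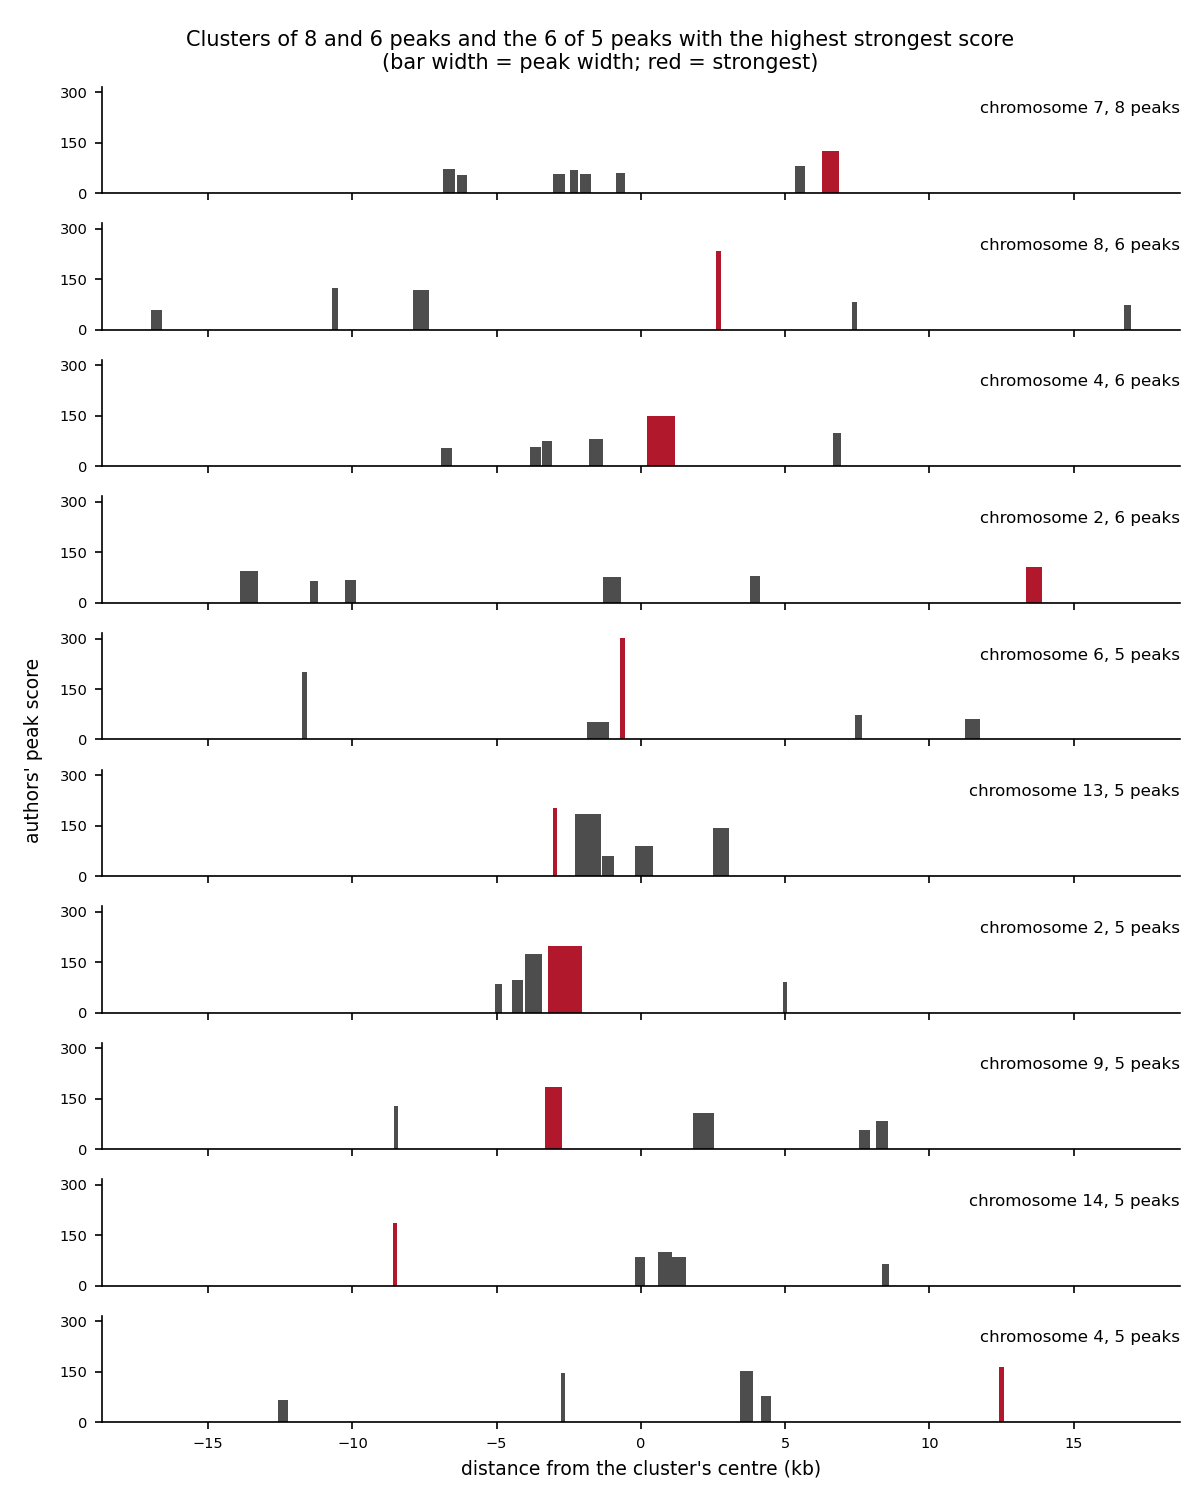
Each row is a cluster, namely the 4 with 6 or 8 peaks and, of the 10 with 5 peaks, the 6 with the highest strongest score, with the distance from the cluster's centre in kb across and the authors' score as bar height on a common scale from 0. Bars are as wide as the peaks, and the strongest is red. It is at an end in 5 of these rows, and over all 14 clusters of 5 or more it is at an end in 5 and inside in 9.

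The strongest peak, the one with the highest score, was found at the ends and inside clusters about as often as these positions occur. In the 184 clusters of 3 without a tie it was the first peak in 53, the middle in 61 and the last in 70. The middle share was 33.2% (26.8 to 40.2%), and the middle is 33.3% of the positions. In clusters of 4 it was an inner peak in 15 of 28 (53.6%, 35.8 to 70.5%), where 50% of positions are inner, and in clusters of 5 or more in 9 of 14 (64.3%, 38.8 to 83.7%), where 63.2% are. Over all 226 clusters without a tie, 85 (37.6%, 31.6 to 44.1%) had it inside and 141 at an end, where 38.9% of positions are inside.

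Strongest peaks were found beside short and long gaps. Of the 123 end peaks that were strongest in a cluster of 3, 57 faced the shorter gap and 66 the longer. The middle peak was strongest in 14 of 41 compact clusters of 3, in 20 of 75 mixed ones and in 27 of 68 spread ones. In clusters of 4 or more, the next strongest peak stood beside the strongest in 21 of 42 (50%, 35.5 to 64.5%), and 45.2% of the other positions are beside it. Neighbouring peaks differed in score by a median of 1.46-fold across gaps of 1000 bp or less and by 1.47-fold across longer ones.

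**Figure D3:**
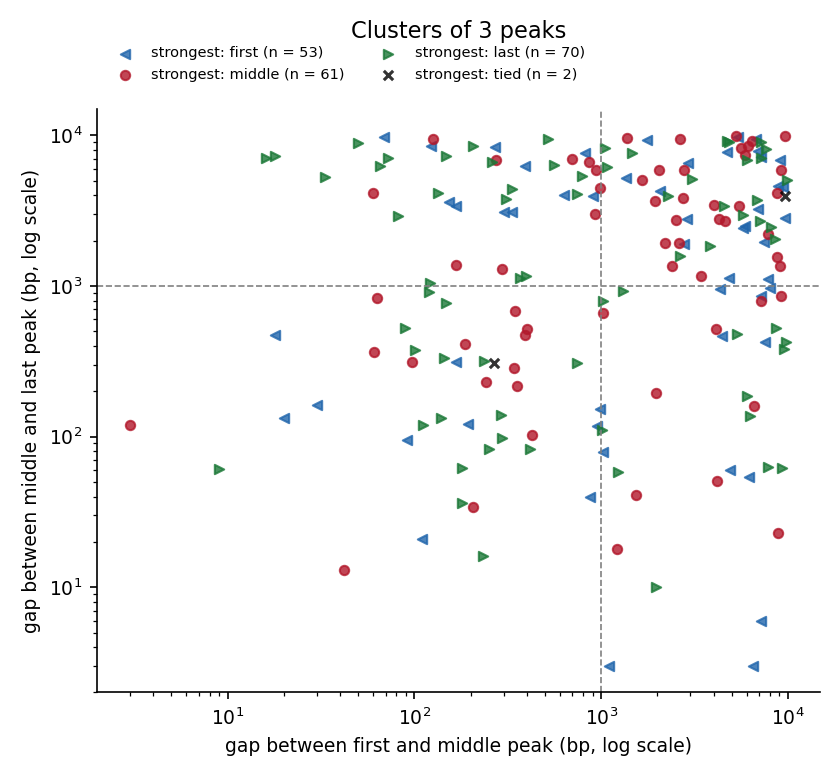
Each point is 1 of the 186 clusters of 3 peaks, with its first gap across and its second gap up, both in bp on log axes; dashed lines mark 1000 bp. Symbols show whether the strongest peak was the first (53), the middle (61) or the last (70), or was tied (2), and the 3 kinds are mixed over the plane.

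The strongest peak of a cluster had a median score of 128 (120 to 140), the next strongest 87.8 and the weakest 63.7. The strongest was a median of 1.36 times the next (1.31 to 1.44) and 2.00 times the weakest. In 42 clusters (18.3%) it was at least 2 times the next, and in 41 (17.9%) it was less than 1.1 times. Both shares depend on the limits chosen, and a lead under 1.1 times includes clusters in which all peaks scored nearly the same.

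The highest scores among the clusters came from 1 place on chromosome 2, from 98502276 to 98507603. Its 4 peaks scored 3100, 1279, 653 and 3100, and they covered 70.8% of 5327 bp. The score of 3100 is the highest in the list and may be a ceiling. No value of the input was used, so whether the input was also high at this place was not checked. The scores alone do not show binding of Ehf there. Of the 6 member peaks in the upper 1% of the list (scores of at least 332), 4 were in this cluster. Without it, each of the 9 medians and shares followed through the alternatives stayed within its interval.

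The next 4 clusters by their strongest peak each had a single high peak. On chromosome 17, from 85636258 to 85645997, the scores were 541, 61.2 and 69.5, the largest lead of any cluster at 7.79 times. On chromosome 12, from 113902821 to 113917696, they were 437, 78.3 and 70.1. On chromosome 16, from 21282188 to 21295747, they were 317, 110 and 74.9. In these 3 clusters the strongest was the first peak and faced the longer gap. On chromosome 2, from 153353594 to 153357875, the third of 4 peaks scored 312 and was 1405 bp wide, against 95.4, 65.5 and 68.2 for the others. Large leads were also found on chromosome 19 from 43513534 to 43515719 (284, 69.0 and 60.3) and on chromosome 15 from 73014172 to 73016757 (76.5, 283 and 79.3), where the strongest was the middle peak, 1085 bp wide.

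At the other end were clusters of nearly equal peaks. On chromosome 8, from 74142843 to 74157595, the scores were 85.2, 90.8 and 90.8 although the gaps were 9620 and 3951 bp. Also on chromosome 8, from 79418031 to 79426636, they were 106, 116 and 110. On chromosome 13, 3 peaks from 58228851 to 58230601 with gaps of 91 and 95 bp scored 136, 128 and 125. On chromosome 12, 3 peaks from 99975297 to 99985691 scored 56.1, 54.2 and 59.5, and they were the only peaks of their bin. Even scores thus occurred in compact clusters and across gaps near the 10000 bp limit.

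The strongest peak was the widest in 87 of 229 clusters (38.0%, 32.0 to 44.4%), in 27 of 46 compact clusters (58.7%, 44.3 to 71.7%) and in 22 of 80 spread ones (27.5%, 18.9 to 38.1%). In the 3 clusters with a tie, the first of the tied peaks was taken as the strongest for these widths. A single peak per cluster is 30.5% of all member peaks. In 66 clusters (28.8%, 23.3 to 35.0%) the strongest peak was under 200 bp wide, a width class that held 104 of the 750 member peaks (13.9%). Of the 85 clusters with such a narrow peak, 66 (77.6%, 67.7 to 85.2%) had a narrow strongest peak, while narrow peaks were 36.5% of the peaks in these 85. Narrow member peaks had a median score of 143 (128 to 166) and wider ones 79.4 (76.3 to 81.4). Single peaks outside dense bins had nearly the same medians, 139 for narrow and 78.8 for wider peaks.

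Narrow peaks stood farther from their neighbours. The nearest peak of the cluster was a median of 2944.5 bp away (2445 to 4046) for narrow peaks and 916.5 bp (726 to 1039) for wider ones. Of the narrow peaks, 29 (27.9%, 20.2 to 37.2%) had a neighbour within 1000 bp, against 341 (52.8%, 48.9 to 56.6%) of the wider. They were end peaks in 70.2% (60.8 to 78.1%) of cases, against 59.6% (55.8 to 63.3%) of the wider. Compact clusters had 10 narrow peaks among 142 and spread clusters 46 among 253. Whether the width bears on the place of the strongest peak was not tested. With a narrow strongest peak it was inside the cluster in 18 of 65 (27.7%, 18.3 to 39.6%), and with a wider one in 67 of 161 (41.6%, 34.3 to 49.3%).

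**Figure D4:**
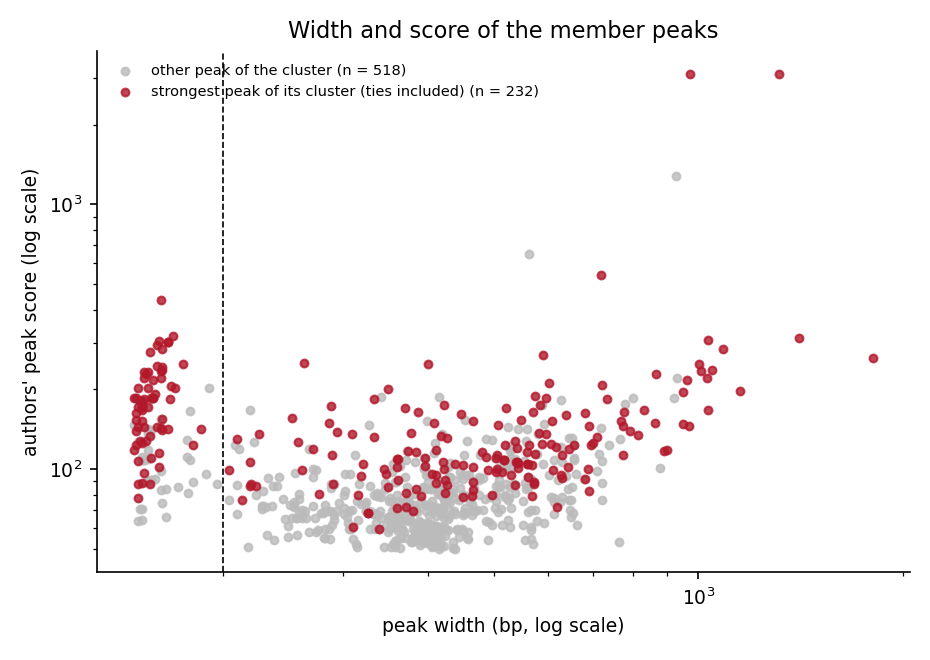
Each point is 1 of the 750 member peaks, with width in bp and the authors' score on log axes; red points are the strongest of their cluster, ties included. Left of the dashed line at 200 bp lie 104 peaks, 67 of them red, and the 2 red points at the top are the peaks scoring 3100 on chromosome 2.

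Compared with single peaks outside dense bins, clustered peaks had a larger median width and a smaller share of narrow peaks. The intervals treat peaks as separate draws, although peaks of a cluster share their position, so neither difference was tested. The interval of the median score in clusters overlapped those of single peaks and of pairs. Against pairs, the intervals of width and of the narrow share overlapped too. The median score was 85.1 (80.2 to 87.6) in clusters, 83.4 (81.1 to 85.1) for 2553 peaks in pairs and 88.1 (86.99 to 89.2) for 10033 single peaks. The median width was 397.5 bp (386 to 407), 383 bp (377 to 390) and 357 bp (352 to 360). Peaks under 200 bp made up 13.9% (11.6 to 16.5%) of clustered peaks, 17.7% (16.3 to 19.3%) of paired ones and 24.7% (23.9 to 25.6%) of single ones. In the 89 clusters of dense bins they made up 9.93% (7.05 to 13.8%). Among peaks of 200 bp or more the median scores were 79.4 in clusters, 77.7 in pairs and 78.8 for single peaks.

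Short gaps were more frequent in these clusters than in the other groupings. The groupings were themselves formed from gaps and bin counts, so the difference is a description and no test. Gaps of 1000 bp or less were 41.7% (37.5 to 45.9%) here, 33.5% (31.0 to 36.2%) of the gaps inside pairs and 27.7% (22.1 to 34.1%) of those in clusters of dense bins. Compact clusters were 20.1% (15.4 to 25.8%) here and 7 of 89 (7.87%, 3.86 to 15.4%) in dense bins. Clusters of dense bins also had lower strongest peaks, with a median of 107 against 128 (intervals up to 118 and from 120). Their lead over the next peak was smaller, 1.22 times (1.16 to 1.29) against 1.36 (1.31 to 1.44). These intervals treat clusters as separate draws, and neither difference was tested. In clusters of dense bins, the strongest peak lay inside in 33.7% (24.7 to 44.0%), where 41.1% of positions are inside. It was under 200 bp wide in 15.7% (9.61 to 24.7%) of them, against 28.8% (23.3 to 35.0%) here, and narrow peaks scored higher. With a strongest peak of 200 bp or more, the median strongest score here was 116 (108 to 124). The same restriction was not applied to clusters of dense bins, so this value has no counterpart there. The 107 above includes their narrow strongest peaks. Whether width accounts for the difference in strongest score was not tested.

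**Figure D5:**
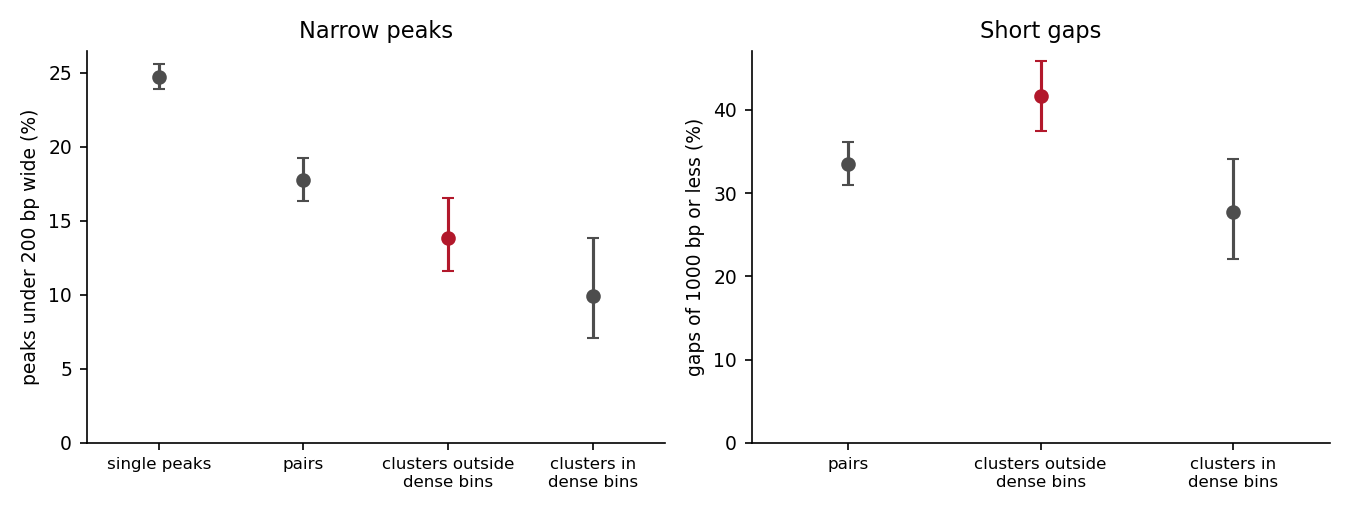
Left, the percentage of peaks under 200 bp wide among single peaks, pairs and clusters outside dense bins and clusters in dense bins; right, the percentage of gaps of 1000 bp or less in the same groupings, without single peaks. Points are shares and bars 95% Wilson intervals, and the clusters outside dense bins (red) have 13.9% narrow peaks and 41.7% short gaps.

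The rule sets its limits at 20 peaks in a bin and at a gap of 10000 bp. The 20 clusters in bins of 18 or 19 peaks had a median span of 8952.5 bp and a median strongest score of 132, while the 19 clusters just outside, in bins of 20 or 21, had 8856 bp and 108. The longest gaps inside a cluster were 9995, 9978 and 9965 bp, and the shortest distances to a peak left outside were 10322, 10494 and 10504 bp.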

How the data were processed

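The deposited Ehf peak list was the only file used. It has no header. Per the submitters' processing notes, the tools included bedtools 2.11.2 and Bowtie 0.12.7, and the build was mm9. Peak names in the file begin with MACS_peak, and for the caller's version, settings and use of the input the sources used here give nothing. The score is the authors' deposited value for each peak. Its scale is not stated, and early MACS versions write a scaled log p-value there. It served only to rank and describe peaks within this list. Read depth is unknown.

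Peaks were sorted, chained and counted per bin on all autosomal peaks with Python 3.11.15, numpy 2.4.6, pandas 2.3.3 and scipy 1.17.1. Tied strongest peaks (3 clusters) were left out of counts of place. For the width of a cluster's strongest peak, the first of the tied peaks was taken. Named clusters were 10 by number of peaks, with ties at 5 peaks broken by the higher strongest score, and the 5 each with the highest strongest peak, the longest and shortest span, the largest lead and the most even scores, 28 in all. Clusters within 100000 bp of another, the bin with 3 clusters and the limits of 200 and 1000 bp were chosen after values were seen. The members, lists and limits were chosen with earlier results of these data known. The chaining was checked on simulated lists. Planned motif and gene results need an mm9 sequence or annotation and were not run.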

Additional observations from a re-analysis of the deposited data

How the results depend on the processing

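The share of 3-peak clusters with the strongest peak in the middle stayed within its interval in all 12 alternatives. Over all values, 89 of 122 comparisons did so, or, for counts, stayed within 1.5 times. The 12 and the 122 include the setting for cut chains, which could not move a value because no chain was cut. With peaks 1000 bp or less apart joined, the middle share was 40.23%, just under its upper limit of 40.24%. Chaining at 5000 bp gave 396 member peaks in 124 clusters, a median span of 2933 bp, a median gap of 518 bp, 61.4% of gaps at 1000 bp or less and 41.1% compact clusters. Chaining at 20000 bp gave 1668 peaks in 489 clusters, 18461 bp, 6516 bp, 24.7% and 7.77%, with a median width of 382 bp and 18.3% narrow peaks. Counts, spans and gaps follow from the distance allowed. The cause of the shift in width and narrow share was not tested. Peaks at or above the median score left 114 in 36 clusters, with a median score of 123, a lead of 1.30 times and 22.8% narrow peaks. Joining peaks 1000 bp or less apart gave 340 in 106 clusters, with a median span of 12530.5 bp and a median gap of 4922 bp. Their median score was 88.2 and 17.1% were narrow, and by construction 0% of gaps were at 1000 bp or less and 0% of clusters compact. Bins were counted again after joining. These 106 are therefore not the same set as the 100 of the 229 clusters that still held 3 or more regions. Without peaks under 200 bp the lead was 1.28 times, the median score 79.98, the median width 413 bp and the narrow share 0% by construction. Compact limits of 500 and 2000 bp, chosen after seeing the data, gave 14.4% and 28.8%. Midpoint distances, bins of 15 or more, no limit on bins, bins moved by 500000 bp, cut chains kept by their member peaks (there were none) and, added after seeing the data, leaving out the cluster with the highest score moved no value past its interval or 1.5 times. No paired analysis was possible because there is only 1 ChIP library and 1 input library. The settings for motifs and genes were not run. The unknown depth limits all values, since weaker regions were never listed.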

Other observations

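The rule covers autosomes. Chained in the same way, the X chromosome had 5 clusters of 3 or more. A cluster of 5 peaks from 166424537 to 166436152 had the highest strongest score among them, 1076, at its last peak. A cluster of 4 from 133639204 to 133646349 had 3 peaks under 200 bp and a strongest score of 351, which 2 of its peaks shared. The other 3 lay between 11239216 and 11705859 and had strongest scores of 244, 79.6 and 216.

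Exact scores recurred among member peaks. Of the 750, 191 (25.5%) shared their score with another member. The same share over the whole list was not counted, so this value does not set members apart from other peaks. The score 69.53 occurred 18 times among members and 282 times in the whole list, and 59.49 occurred 13 and 358 times. None of the members with these scores was under 200 bp wide, while all 5 members with the score 170.96 were.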
